A study of Mus musculus with 4 samples.

Results

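The cytosolic ribosomal protein genes of the mouse were followed across 4 arrays. They were taken by name: gene symbols made of Rpl or Rps and a number, with the small suffixes a, x and l allowed, plus Rplp0, Rplp1, Rplp2 and Rpsa. Genes whose symbols name them as pseudogenes, and the Rps6 kinases, stay outside that rule. The array carried 84 such genes, and 81 of them passed a background filter, which asked for a signal flagged as well above background on 2 or more arrays. In all, 23522 named features passed it. Of the 81, 80 were well above background on all 4 arrays and Rpl3l on 2. Of the 3 that did not pass, Rpl10l and Rpl39l are paralogs and Rpl37 is a core gene, and each has 1 probe that was well above background on 0 arrays.

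RNA came from tumours that 4T1, a mammary carcinoma line of mouse, formed after implantation into BALB/C mice without treatment. Cells were sorted by ALDEFLUOR, a reaction in which aldehyde dehydrogenase (ALDH) makes a fluorescent product, into a fraction of high and a fraction of low ALDH activity. The 4 groups were the ZT12 ALDH-high, ZT12 ALDH-low, ZT0 ALDH-high and ZT0 ALDH-low fractions, with 1 array each. ZT is zeitgeber time, here 12 h and 0 h. All 4 groups share the line, the strain and the lack of treatment. The age of the mice and the number pooled per fraction are not given in the sources used here, 4T1 is a single line, and the implanted host supplies its own blood and stroma.

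The ribosome is built from a small (40S) and a large (60S) subunit, and most ribosomal proteins are present in a single copy per particle, the acidic stalk proteins being the exception. Their mRNAs are among the most abundant of growing cells, and most begin with a tract of pyrimidines that lets growth signals through mTOR control how well they are translated. Because the proteins are made in proportion, their transcripts tend to move together across tissues, and cells that divide or differentiate differ in how much of them they hold.

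The start-site tract was looked for in the RefSeq promoter sequences (assembly GRCm38.p6), which hold an entry for 60 of the 81 genes. In a window of 15 bases before and 15 bases after an annotated start, on the sense strand, a C followed by at least 5 pyrimidines was present in 35 of the 60 genes (58.3%), against 25.4% of 26965 other genes. The windows below are of genes with wide, small and opposite ALDH differences, described further on, and of Rps6, which lay between them. Capitals mark the tract.
Rpl14, chr9:120571502-120571531, plus strand: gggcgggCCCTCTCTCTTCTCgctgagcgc
Rpl12, chr2:32961697-32961726, plus strand: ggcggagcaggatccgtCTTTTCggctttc
Rps18, chr17:33955651-33955680, minus strand: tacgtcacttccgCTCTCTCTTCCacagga
Rps6, chr4:86857353-86857382, minus strand: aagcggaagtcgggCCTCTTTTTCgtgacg
Rps27, chr3:90213634-90213663, minus strand: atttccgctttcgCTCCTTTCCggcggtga
Rps9, chr7:3704026-3704055, plus strand: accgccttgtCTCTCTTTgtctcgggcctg
Rpl10, chrX:74270801-74270830, plus strand: gttgttacagtggaagataggccgcctata
The tract stands in Rpl14 and Rpl12, whose ALDH differences were among the widest, and also in Rps27, which was nearly flat at ZT0, and in Rps9, which differed in the opposite direction. No such run is in the Rpl10 window, which says only that these letters are not in it. Over the promoters of 250 bases before to 50 after the start, both strands searched, CCGGAAG, the core that ETS-family factors bind, was in 24 of the 60 genes (40%) and in 9.86% of the others. AAGATGGC, a form of the YY1 motif, was in 6 (10.0%) and in 3.17%, and TATAAA in 7 (11.7%) and in 15.7%. A match is a description of the letters and not of binding.

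Probe sequences are shown for Rps9, whose direction opposed that of the family on probes at different places of the gene. They are also shown for Rps27 and Rps29, whose probes printed here the files place on another chromosome than the gene. Each is the deposited 60-base probe with at least 1 frame free of stop codons and stands at the mm9 position that the files give. None of these shares a run of 25 or more bases with a probe from outside the family, so no base is in capitals. Runs shared between members were not searched.
Rps9, chr7:3658287-3658346, plus strand: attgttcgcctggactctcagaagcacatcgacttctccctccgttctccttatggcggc
Rps9, chr7:3656257-3656316, plus strand: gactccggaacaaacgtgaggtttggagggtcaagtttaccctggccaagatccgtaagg
Rps27, chr9:114891672-114891731, minus strand: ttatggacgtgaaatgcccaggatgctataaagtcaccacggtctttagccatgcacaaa
Rps29, chr2:172335075-172335134, minus strand: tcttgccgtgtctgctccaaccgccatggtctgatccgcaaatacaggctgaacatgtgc
The files place both Rps27 probes on chromosome 9 and these Rps29 bases on chromosome 2, while RefSeq has the genes on chromosomes 3 and 12. Another Rps29 probe, not printed, is placed on chromosome 12.

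The signal scale and the arrays set limits on every value below. A level is the log2 processed signal of the gene's brightest probe minus the 75th percentile of its array, so 0 is the 75th percentile and 1 unit is 2-fold. That percentile was 156.3 for ZT12 ALDH-high, 458.8 for ZT12 ALDH-low, 300.6 for ZT0 ALDH-high and 213.6 for ZT0 ALDH-low, and 0 of 59305 spots were saturated on any array. Between 55.8% and 60.6% of probes were well above background. Both ZT12 arrays lay on 1 slide and both ZT0 arrays on the other, so slide and time cannot be told apart. ZT12 ALDH-high and ZT0 ALDH-low lay at position 1_1, ZT12 ALDH-low and ZT0 ALDH-high at position 1_2, so a difference in ALDH that changes with time cannot be told apart from position. The spike-in slope was 0.789 and 0.873 on the position 1_1 arrays and 0.944 and 0.956 on the position 1_2 arrays.

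Across the family, transcripts were higher in the ALDH-high than in the ALDH-low fraction at ZT12 and lower at ZT0. The median difference of the 81 genes was 0.65 at ZT12 and -0.90 at ZT0, beside medians of 0.30 and -0.32 over all 23522 features. Relative to those, the genes stood 0.35 higher at ZT12 and 0.59 lower at ZT0. With each array set to its median instead, the medians of all features became -0.57 at ZT12 and 0.17 at ZT0, and the median of the family became -0.22 at ZT12, a turn of direction, and -0.42 at ZT0, while the values relative to all features stayed at 0.35 and -0.59. The directions below are on the 75th percentile scale unless stated.

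At ZT12, 78 of the 81 genes were above 0 and 3 below (57.8% of all features were above 0), with 19 above and 62 below on the median scale and 63 above and 18 below with quantile normalization. At ZT0, 78 were below 0 and 3 above (58.0% of all features were below 0), with 69 below and 12 above on the median scale. Against the median of all features, which no shift of an array moves, 73 genes lay above it at ZT12 and 74 below it at ZT0. With no background filter that relative direction turned at ZT12, where 9 of 84 genes lay above a median of all features of 1.0, and held at ZT0, where 68 lay below it. The same 78 genes were higher at ZT12 and lower at ZT0, a pattern that 50% of all features had. The reverse pattern, lower at ZT12 and higher at ZT0, was that of Rps9, Rpl7l1 and Rpl3l, and of 34.2% of all features. Rpl3l passed the filter only through the arrays where it was high, so the filter fixed its direction.

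**Figure D1:**
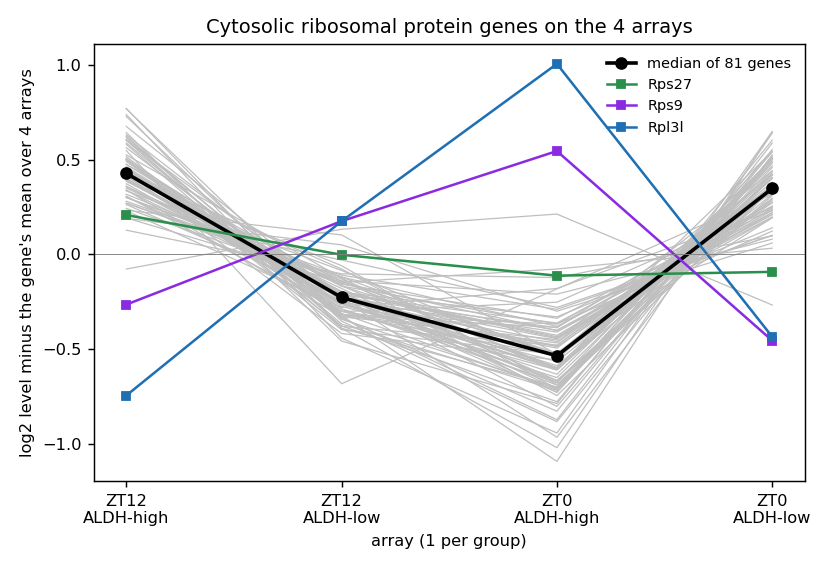
Log2 level of each of the 81 genes minus its own mean over the 4 arrays (vertical axis), by array (horizontal axis, 1 array per group); 79 genes are drawn, grey lines are single genes, the black line is the median of all 81, and coloured lines are 3 named genes. The median is 0.42 in ZT12 ALDH-high and 0.34 in ZT0 ALDH-low, against -0.23 in ZT12 ALDH-low and -0.53 in ZT0 ALDH-high; Rpl3l was not well above background in ZT12 ALDH-high and ZT0 ALDH-low.

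What set the family apart from other features was how alike its members were, more than how far they moved. The middle 50% of the genes spanned 0.34 log2 units at ZT12 and 0.48 at ZT0, against 2.16 and 2.01 units for all features. At least 2-fold higher at ZT12 were 8 genes and at least 2-fold lower 0, where 32.2% and 17.9% of all features passed those lines. At ZT0, 35 genes were at least 2-fold lower and 1, Rpl3l, higher, where 31.5% and 20.5% of all features did so. These counts depended on the scaling: the 8 became 1 and the 35 became 5 on the median scale, and 1 and 12 with normexp and quantile normalization. Between Rpl13a (-1.0) and Rplp1 (-0.96) ran the 2-fold line at ZT0, and between Rpl32 (1.07) and Rpl13 (0.98) at ZT12.

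With 1 array per group, no difference at a single time has a replicate check. The limma fit over all 4 arrays, with ALDH and time as terms and 1 residual degree of freedom, called 0 of the 81 genes and 0 of 23522 features (0%) for ALDH, with 7 features and 0 of these genes at an unadjusted p under 0.05. Its smallest unadjusted p among these genes was 0.759 and every adjusted p was 1. The standard error was 1.54 log2 units, wider than the mean ALDH difference of any of these genes. The residual of this fit is the change of the ALDH difference with time, which is also array position. The standard error thus holds the pattern described above, and the fit cannot test that pattern. With position in place of time, the median standard error was 0.296. That limma fit called 0 features for ALDH, with 1916 features and 0 of these genes at an unadjusted p under 0.05. Nothing says that the fractions came from separate groups of animals.

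**Figure D2:**
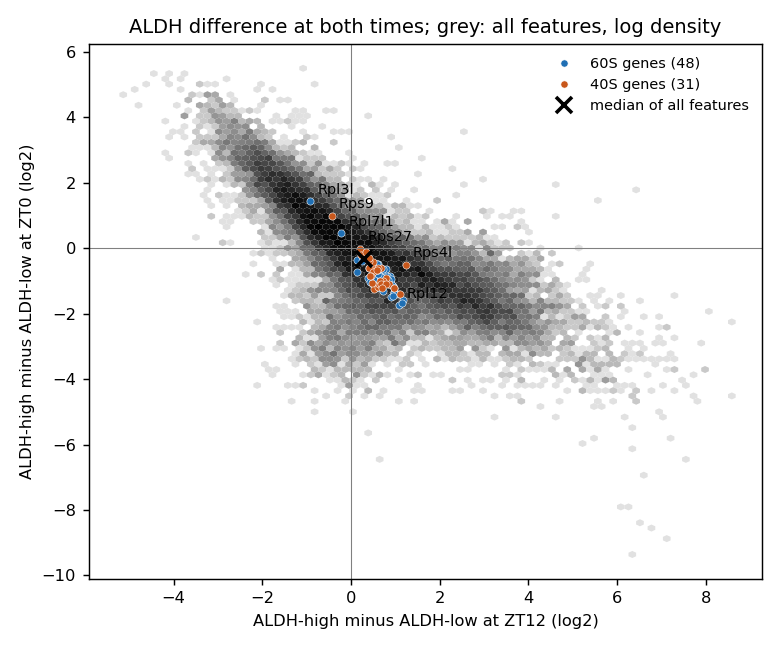
Log2 difference between the ALDH-high and ALDH-low fractions (high minus low) at ZT12 (horizontal) against that at ZT0 (vertical) for 23522 features (grey hexagons, darker for more features on a log scale), 48 genes of the 60S subunit (blue) and 31 of the 33 of the 40S subunit (orange). The family lies in a tight group at the lower right of the median of all features (cross), with Rps9, Rpl7l1 and Rpl3l on the opposite side of 0; on the median scale both axes shift, and the family's median at ZT12 becomes -0.22.

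Both subunits gave close values. The 48 genes of the 60S subunit had medians of 0.68 at ZT12 and -0.91 at ZT0. At ZT0, 20 of them were at least 2-fold lower, where 31.5% of all features were. The 33 genes of the 40S subunit had medians of 0.61 at ZT12 and -0.86 at ZT0, and 15 were at least 2-fold lower at ZT0, beside the same 31.5%. Genes with the pyrimidine tract printed above had medians of 0.71 at ZT12 and -1.0 at ZT0 (35 genes), and genes without it 0.57 and -0.83 (25 genes). These spans overlapped: with the tract, values at ZT0 ran from -1.74 to 1.0, and without it from -1.45 to 1.44. The 1.44 is that of Rpl3l, whose direction the filter fixed.

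Among 40S genes, Rps18, a protein of the subunit's head, measured 9.02 in ZT12 ALDH-high and 7.92 in ZT12 ALDH-low, and 7.59 in ZT0 ALDH-high and 8.98 in ZT0 ALDH-low. ZT12 ALDH-high and ZT0 ALDH-low were the 2 high arrays, and the gene was past 2-fold at both times, with a difference of 1.1 at ZT12 and of -1.40 at ZT0. In all, 7 genes were at least 2-fold higher at ZT12 and at least 2-fold lower at ZT0, a pattern of 20.4% of all features, among them Rps18, Rpl12, Rpl14, Rpl10a and Rpl32.

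Rps2, at the mRNA entry side, differed by 0.53 at ZT12 and -1.26 at ZT0. Rpsa, also known as the laminin receptor, differed by 0.70 and -1.22. Rps19, the gene most often mutated in Diamond-Blackfan anaemia, differed by 0.97 and -1.20. Rps4x, the X-linked copy, gave 0.69 and -1.1, and Rps28 gave 0.47 and -1.06. These 5 genes were each past 2-fold at ZT0 and short of it at ZT12. Rps6, the substrate of S6 kinase downstream of mTOR, gave 0.46 and -0.86, close to the family's median at ZT0 and just below its middle 50% at ZT12. Rps14, whose loss in humans underlies the anaemia of the 5q deletion, gave 0.61 and -0.61.

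A few 40S genes were nearly flat. Rps27, a zinc-finger protein, measured 8.03 in ZT12 ALDH-high and 7.82 in ZT12 ALDH-low, and 7.71 in ZT0 ALDH-high and 7.73 in ZT0 ALDH-low. Rps29, another zinc-finger protein, measured 8.23 in ZT12 ALDH-high and 7.89 in ZT12 ALDH-low, and 7.96 in ZT0 ALDH-high and 8.07 in ZT0 ALDH-low. For both, the 4 levels lay close together, with differences of 0.20 and 0.34 at ZT12 and of -0.02 and -0.11 at ZT0, and on the median scale these became -0.67 and -0.54 at ZT12 and 0.47 and 0.37 at ZT0. The Rps27 and Rps29 probes printed above gave 0.10 and 0.45 at ZT12 and 0.09 and -0.15 at ZT0. Rps27a, which is made as a fusion with ubiquitin, differed by 0.23 at ZT12 and -0.22 at ZT0, and Rps3, which also takes part in DNA repair, by 0.41 and -0.29; both signs turned at both times on the median scale.

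Rps9, a core protein of the 40S subunit, went the other way. Its level was 7.76 in ZT12 ALDH-high and 8.20 in ZT12 ALDH-low, and 8.57 in ZT0 ALDH-high and 7.57 in ZT0 ALDH-low. The difference was -0.44 at ZT12 and 1.0 at ZT0, just short of 2-fold, while its family had 0.65 and -0.90. All 4 Rps9 probes had these signs: the second one printed above gave -0.46 and 0.98, and the other 2, annotated to transcript variants, gave -1.30 and 0.82, and -1.25 and 1.69. The signs of Rps9 also held under each of the 7 other ways of scaling, filtering or combining probes, with values from -1.31 to -0.44 at ZT12 and from 1.0 to 1.48 at ZT0.

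**Figure D3:**
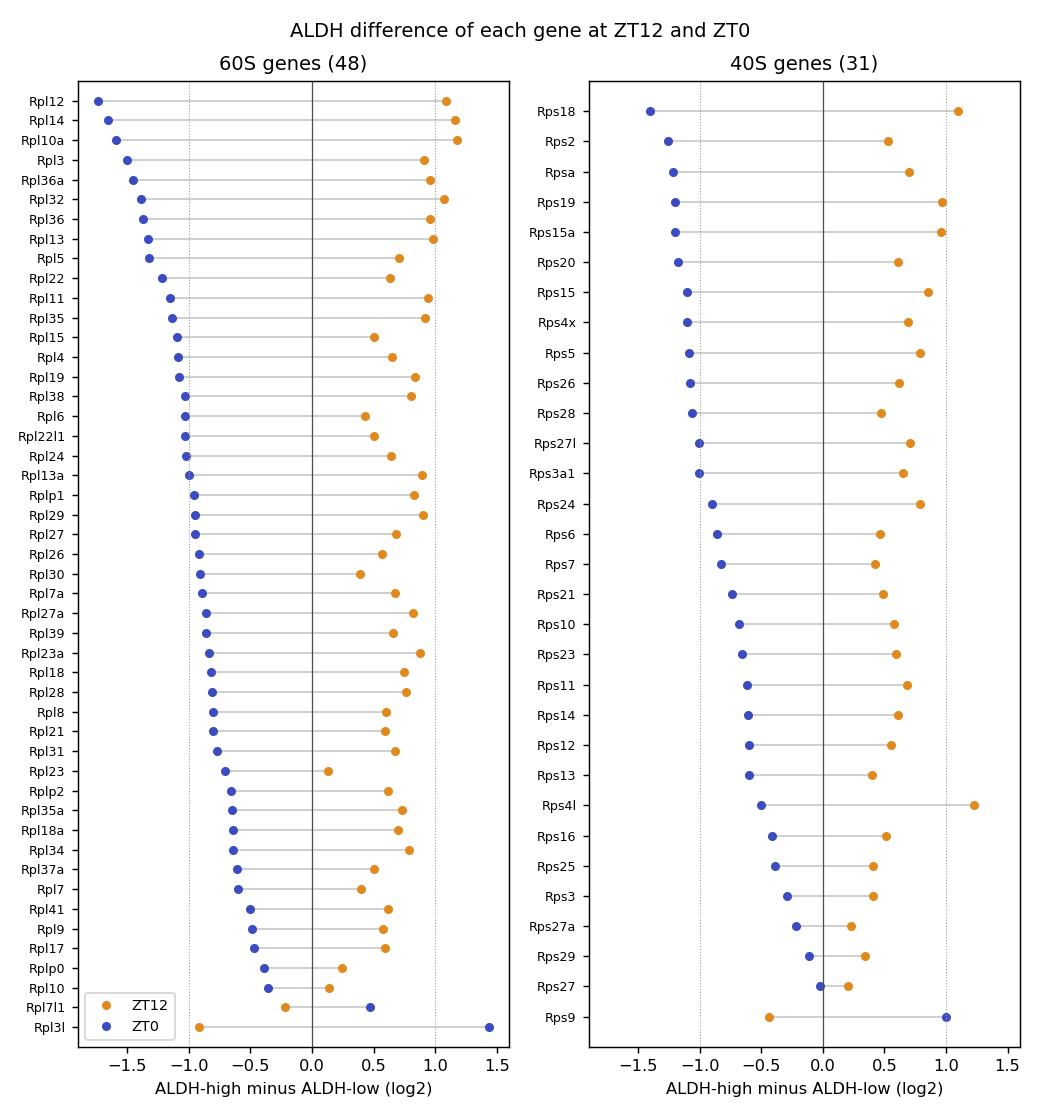
Log2 difference (ALDH-high minus ALDH-low) of each gene (horizontal axis) at ZT12 (orange) and ZT0 (blue), for the 60S subunit (left) and 31 of the 33 genes of the 40S subunit (right), ordered by the ZT0 value; dotted lines mark 2-fold. Every gene drawn but Rps9, Rpl7l1 and Rpl3l has its orange point to the right of its blue one and of 0; on the median scale 62 of the 81 lie below 0 at ZT12.

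In the 60S subunit, Rpl12, Rpl14 and Rpl10a had the widest differences. Rpl12, at the base of the stalk that recruits elongation factors, measured 7.41 in ZT12 ALDH-high and 6.32 in ZT12 ALDH-low, and 5.55 in ZT0 ALDH-high and 7.29 in ZT0 ALDH-low. Rpl14 measured 7.54 in ZT12 ALDH-high and 6.38 in ZT12 ALDH-low, and 5.75 in ZT0 ALDH-high and 7.41 in ZT0 ALDH-low. Rpl10a, the protein of the L1 stalk that guides leaving tRNA, measured 7.77 in ZT12 ALDH-high and 6.59 in ZT12 ALDH-low, and 6.09 in ZT0 ALDH-high and 7.68 in ZT0 ALDH-low. In all 3, ZT0 ALDH-high was the lowest array and ZT12 ALDH-high the highest, by a small margin over ZT0 ALDH-low. Their differences were 1.09, 1.16 and 1.18 at ZT12 and -1.74, -1.66 and -1.59 at ZT0.

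Rpl3, which reaches toward the peptidyl transferase centre, differed by 0.91 at ZT12 and -1.50 at ZT0. Rpl5 and Rpl11 form a particle with 5S rRNA and, outside the ribosome, bind Mdm2, which restrains p53; they differed by 0.71 and 0.94 at ZT12 and by -1.32 and -1.15 at ZT0. Rpl22, needed for T-cell development in mice, gave 0.63 and -1.22, and its paralog Rpl22l1 gave 0.50 and -1.03. Rpl38, which affects translation of Hox mRNAs in mouse embryos, gave 0.80 and -1.03, Rpl6 gave 0.43 and -1.03, and Rpl13a, a part of the interferon-induced GAIT complex in human cells, gave 0.89 and -1.0. All of these were at or past 2-fold lower at ZT0 and short of 2-fold at ZT12.

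The stalk proteins proper were nearer to the middle. Rplp1 differed by 0.83 at ZT12 and -0.96 at ZT0, Rplp2 by 0.62 and -0.66, and Rplp0, often used as a reference gene, by 0.24 and -0.39. Rpl10, whose loop lines the site where peptide bonds form, differed by 0.14 and -0.36, and Rpl23 by 0.13 and -0.71. Rplp0 and Rpl10 turned sign at both times on the median scale. Rpl7, Rpl39 and Rpl41, the last the smallest protein of the ribosome, gave 0.40, 0.66 and 0.62 at ZT12 and -0.60, -0.86 and -0.50 at ZT0.

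Paralogs varied more than the core set, and 5 were measured, with medians of 0.50 at ZT12 and -0.50 at ZT0. Rps27l, a target of p53, gave 0.71 and -1.01, beside values near 0 for Rps27. The Rps4l probe is annotated to a non-coding RNA. Rps4l measured 0.70 in ZT12 ALDH-high and -0.53 in ZT12 ALDH-low, and -0.03 in ZT0 ALDH-high and 0.47 in ZT0 ALDH-low, a difference of 1.23 at ZT12 and -0.50 at ZT0. Rpl7l1 measured -0.86 in ZT12 ALDH-high and -0.65 in ZT12 ALDH-low, and -0.57 in ZT0 ALDH-high and -1.05 in ZT0 ALDH-low, and so ran opposite to most of the family.

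Rpl3l, a form of heart and skeletal muscle, was not well above background in ZT12 ALDH-high and ZT0 ALDH-low. It was at least 1.90-fold lower in the ALDH-high fraction at ZT12 and at least 2.72-fold higher at ZT0. It passed the filter only through the arrays where it was high, so the filter fixed this direction. With the 5 paralogs left out, the medians of the other 76 genes and the counts past 2-fold differed by less than the spread between probes or by less than 1.5 times.

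Different probes of a gene mostly gave the same answer. In 58 genes with at least 2 passing probes, the median SD of the ALDH difference across probes was 0.113 at ZT12 and 0.09 at ZT0. Of the 92 probes that were not the brightest, 9 had the opposite sign at ZT12 or at ZT0, and 6 at both. Those 6 belong to Rpl13, Rpl41, Rpl7, Rps12, Rps13 and Rps29, and their accessions are those of other transcripts than the one of the brightest probe. The Rps29 one was well above background on only 2 arrays. Its processed signal was 52.2 in ZT12 ALDH-low and 41.3 in ZT0 ALDH-high, against 5.02 in ZT12 ALDH-high and 14.2 in ZT0 ALDH-low. As for Rpl3l, the filter can have fixed its direction, so its opposite sign is no independent result. The Rps13 one gave -1.35 at ZT12 and 2.41 at ZT0, beside 0.40 and -0.60 for the brightest probe of that gene. An Rps24 probe for another variant gave 0.51 and -2.24, beside 0.79 and -0.90.

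**Figure D4:**
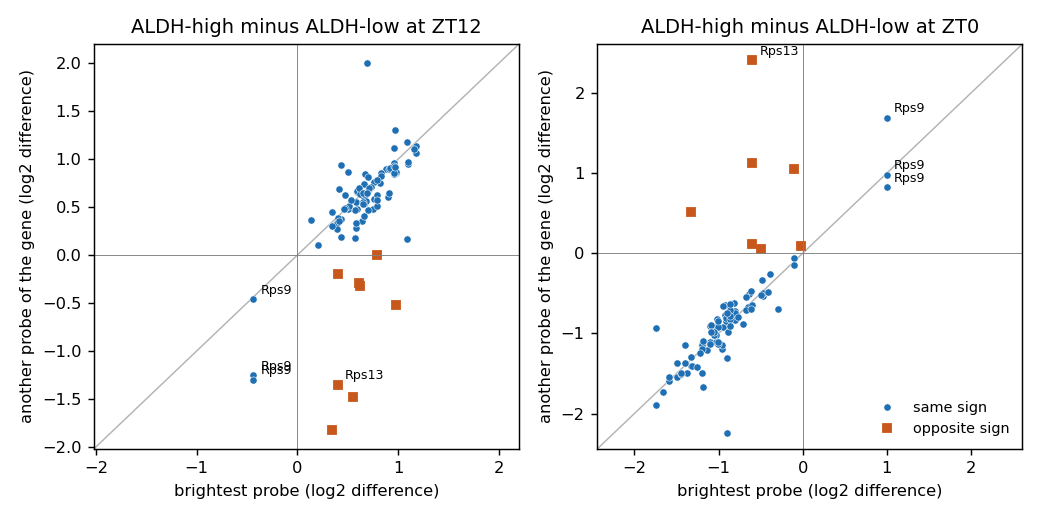
Log2 difference (ALDH-high minus ALDH-low) of 90 of the 92 further probes (vertical) against that of the brightest probe of the same gene (horizontal), at ZT12 (left) and ZT0 (right); the diagonal marks equal values. Most points follow the diagonal, and squares mark probes of opposite sign, among them one of Rps13.

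Cross-hybridisation between family members and pseudogenes could not be separated by these probes. Only probes from outside the family were searched for shared runs. A run of at least 25 bases in common with such a probe was present in 25 of the 81 brightest probes. In all 25 cases the other feature was also higher at ZT12 and lower at ZT0, a pattern of 50% of all features. These features were picked for sharing bases with the member probes, so a like direction is no independent support. The 55 genes whose brightest probe had no such run and lay on the gene's own chromosome, a choice made after the data were seen, had the same median at both times within the spread between probes. Of these 55 genes, 21 were at least 2-fold lower at ZT0, where 31.5% of all features were.

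Averaged over both times, the ALDH difference of the family was small. Its median was -0.11, beside 0.15 for all features, and 77 of the 81 genes lay below the median of all features. Comparing arrays of one position gave opposite signs: ZT12 ALDH-high minus ZT0 ALDH-low, both at position 1_1, had a median of 0.11 in the family, and ZT0 ALDH-high minus ZT12 ALDH-low, both at 1_2, had -0.32. Both arrays at 1_1 were thus high for the family and both at 1_2 low. Within position, the wide differences of either sign were not seen, and position and the change of ALDH difference with time cannot be told apart.

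Read by time, the same 4 arrays gave a lower level at ZT12 in the ALDH-low fraction and a higher one in the ALDH-high fraction. In the ALDH-low fraction the median ZT12 minus ZT0 difference was -0.59 (all features -0.42), 77 genes were below 0 (61.3% of all features), and 4 were at least 2-fold lower (32.7%). In the ALDH-high fraction it was 0.95 (all features 0.33), 78 genes were above 0 (57.9%), and 37 were at least 2-fold higher (32.5%). Among the widest were Rpl10a (-1.09) and Rps18 (-1.06) in the ALDH-low fraction and Rpl12 (1.86) and Rpl14 (1.78) in the ALDH-high fraction. Rps9 had the opposite signs, 0.63 and -0.81. On the median scale the ALDH-low median turned to 0.24. These differences use the arrays of the ALDH comparison again. The limma fit called 0 of 81 genes and 0 features (0%) for time, with 2 features and 0 of these genes at an unadjusted p under 0.05; the smallest p among these genes was 0.606.

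The features outside the family whose 4-array pattern lay nearest to its median included another ribosomal sequence. Nearness was the root mean square distance between patterns centred on their own mean over the 4 arrays. The nearest was a transcript annotated as ribosomal protein L31 pseudogene 11 (0.00639), followed by Nagk, which encodes N-acetylglucosamine kinase (0.00952), a transcript of a predicted gene (0.0160), Slc35b1, a solute carrier (0.0173), and an unannotated transcript. The members themselves lay at a median distance of 0.122 and all features at 0.667. Across the 81 genes, the ALDH differences at ZT12 and ZT0 had a Pearson correlation of -0.802 and a Spearman correlation of -0.704, beside -0.746 and -0.770 across 23522 features; genes of an array share its scale and position and are not independent replicates.

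Other genes of protein synthesis were read from lists chosen for their role. Of 76 mitochondrial ribosomal protein genes, 7 were at least 2-fold higher at ZT12 and 28 at least 2-fold lower at ZT0 (32.2% and 31.5% of all features), with medians of 0.46 and -0.81; Mrpl23 gave 1.37 and -2.31. Of 50 ribosome biogenesis genes, which process rRNA and assemble subunits, 9 and 31 passed those lines, with medians of 0.48 and -1.29; Tcof1, which promotes rRNA transcription, gave 1.47 and -1.85, and Wdr12, which matures the 60S precursor, gave 1.18 and -2.04. Both lists thus lay on the same side as the cytosolic genes, which were far less dispersed.

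Initiation factors (39 genes) had medians of -0.04 at ZT12 and -0.34 at ZT0, with 1 at least 2-fold higher at ZT12 and 8 at least 2-fold lower at ZT0, both smaller shares than the 32.2% and 31.5% of all features. Eif2b3 ran with the ribosomal genes, at 1.44 at ZT12 and -2.56 at ZT0. Eif4ebp1 and Eif4ebp2, which block cap-dependent initiation until mTOR phosphorylates them, ran opposite to the ribosomal genes, at -1.01 and -1.57 at ZT12 and 1.88 and 2.19 at ZT0. Of the 39 factors, 17 were higher at ZT12 and lower at ZT0 (50% of all features), and 14 the reverse (34.2%). Elongation and release factors (14 genes) had 0.26 and -0.66. Among 20 regulators of growth, with medians of -0.88 and 0.35, Mxd1, an antagonist of Myc, gave -3.23 at ZT12 and 4.10 at ZT0. The 8 snoRNA host genes, several of which also begin with a pyrimidine tract, had medians of -0.52 and -0.01. Ribosome-associated genes outside the naming rule, Rpl36al and Gnb2l1 (RACK1), gave 0.91 and 0.70 at ZT12 and -1.46 and -1.31 at ZT0.

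**Figure D5:**
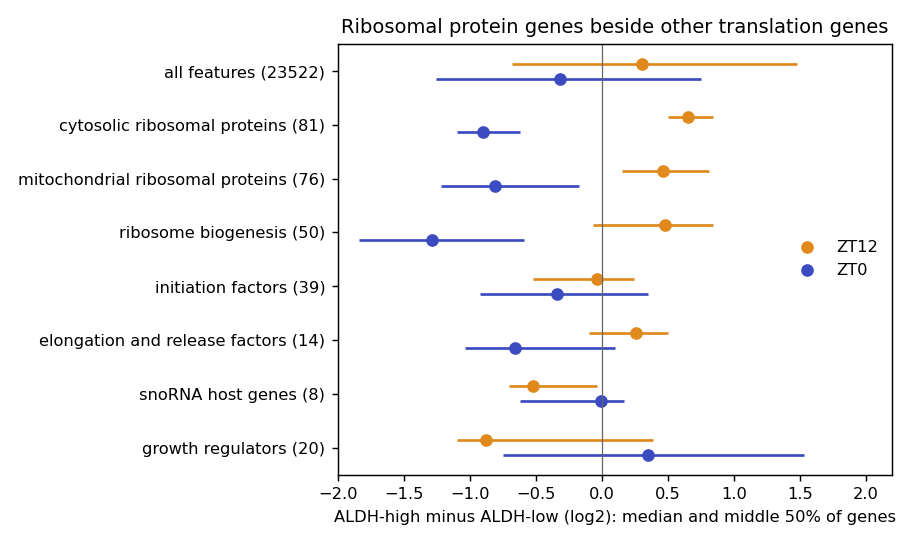
Median (point) and middle 50% of genes (line) of the log2 difference (ALDH-high minus ALDH-low) at ZT12 (orange) and ZT0 (blue) for all features and 7 gene lists, with the number of genes in brackets. The cytosolic ribosomal proteins have the narrowest lines, with medians of 0.65 at ZT12 and -0.90 at ZT0; on the median scale these become -0.22 and -0.42.

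Markers of other cells differed between the same fractions, although the labels name 4T1 cells. Levels summed over a list are signals divided by the 75th percentile of the array. The 81 ribosomal genes summed to 13700 in ZT12 ALDH-high and 8680 in ZT12 ALDH-low, and to 7310 in ZT0 ALDH-high and 12600 in ZT0 ALDH-low. The 18 T and NK cell markers summed to 73.6 and 14.2 at ZT12 and to 28.8 and 55.6 at ZT0, the 10 B cell markers to 41.2 and 1.75 and to 5.81 and 32.3, and the 13 macrophage markers to 708 and 325 and to 280 and 556, in the same order. Erythroid markers (9 genes) summed to 292 and 5.57 at ZT12 and to 4.21 and 868 at ZT0. For these 4 lists, and for the epithelial one, the ALDH-high sum was the larger at ZT12 and the smaller at ZT0, as for the ribosomal genes. Over all features the sums were 269000 and 197000 at ZT12 and 223000 and 220000 at ZT0. The epithelial margin at ZT12 was smaller than that of all features. Higher at ZT12 and lower at ZT0 were 15 of 18 T and NK, 8 of 10 B cell and 10 of 13 macrophage markers. So were 8 of 9 erythroid and 13 of 15 epithelial markers, and 50% of all features. Some of these markers passed the filter only through the arrays where they were high.

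Neutrophil markers ran mostly the other way: 11 of 17 were at least 2-fold lower in ALDH-high at ZT12 and 12 at least 2-fold higher at ZT0 (17.9% and 20.5% of all features), with Ly6g, which defines mouse neutrophils, at -3.06 and 4.97. Their sum was nevertheless larger in ALDH-high at both times, at 3250 and 2690 at ZT12 and 4500 and 2420 at ZT0. The neutrophil margin at ZT12 was smaller than that of all features (269000 and 197000). Epithelial markers (15 genes) summed to 99.8 and 90.3 at ZT12 and to 13.1 and 206 at ZT0, and Epcam, Krt8 and Krt18 were well above background on all 4 arrays. In ZT12 ALDH-low and ZT0 ALDH-high, the NK markers Klrb1c and Ncr1, the B-lineage markers Cd79a and Igll1 and the erythroid markers Alas2 and Slc4a1 were not well above background. The part of these cells in the ribosomal differences was not tested, and in bulk samples fewer cells of a type and less RNA per cell cannot be told apart.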

How the data were processed

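RNA of 4 sorted fractions was hybridised to 4 one-colour Agilent arrays. Per the file headers, Feature Extraction 10.7.1.1 (version 9.5.1.1 per the submitters' processing notes) made the processed signal, an intensity on a linear scale that is background-subtracted and detrended within each array; spot means, local backgrounds and flags were deposited beside it. The authors' deposited series table holds intensity values with a median of 28.3 in each column, so normalized between arrays and uncentred; it was used as an alternative, and no source used here gives its method.

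Control and outlier spots were left out, replicate spots averaged, and each array's 75th percentile was subtracted from the log2 of the deposited intensity, keeping 1 probe per gene (highest mean). The background filter (2 arrays or more) kept 34576 of 56605 probes. Probe positions are mm9; RefSeq sequences are GRCm38.p6. The model was fitted by limma 3.58.1 under R 4.3.3 (lmFit, then eBayes; two-sided p-values adjusted by Benjamini-Hochberg, threshold 0.05), ALDH plus time, on all 4 arrays. On simulated arrays for ALDH over 23522 features, 15 of 200 genes changed by 4 log2 units and 195 of 200 changed by 8 were called. Single-time differences had no test; the SD across probes of a gene served to say whether a value moved. Median, quantile and normexp (offset 50) scaling, filters, probe averaging, paralogs, array position, leaving out an array and a fold of 1.5 were alternatives. Python 3.11.15, pandas 2.3.3, numpy 2.4.6 and matplotlib 3.10.9 were used.

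The genes and lists were chosen with earlier results of these data known. Genes named with values were the 5 most positive and 5 most negative ALDH differences at each time, the 3 most extreme time differences per fraction, fixed genes with known roles, and up to 3 per other list; Rps12, Rps13, Rps24, Rpl32, Krt8, Krt18, the markers not well above background and the genes next to the 2-fold lines were named after their values were seen. A few genes that enter the counts, medians and ranges are not reported here by name or drawn singly.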

Additional observations from a re-analysis of the deposited data

Results flagged for a closer look

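The ALDH difference of the ribosomal protein genes had opposite signs at ZT12 and ZT0, and the difference between the times was not tested. Taken as the ALDH-high minus ALDH-low difference at ZT12 minus that at ZT0, the median over 81 genes was 1.56 log2 units. Among the genes at least 2-fold higher at ZT12 and at least 2-fold lower at ZT0, Rpl12 had 2.83, Rpl14 2.82, Rpl10a 2.77, Rps18 2.49 and Rpl32 2.47. Rps9 had -1.44, with the opposite sign at each time. Each of these values rests on 4 arrays, 1 per group, and cannot be told apart from array position.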

How the results depend on the processing

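The values given here are for the 81 genes in the order ZT12 ALDH difference, ZT0 ALDH difference, ZT12 minus ZT0 in ALDH-low, and ZT12 minus ZT0 in ALDH-high. As measured, the medians were 0.65, -0.90, -0.59 and 0.95, the counts past 2-fold in the main direction 8, 35, 4 and 37, and the mean over both times -0.11. Scaling each array to its median gave -0.22, -0.42, 0.24 and 0.42, counts of 1, 5, 0 and 7, and a mean of -0.30; relative to all features nothing moved. Quantile normalization gave 0.39 and -1.09 for the ALDH medians, a count of 3 at ZT12 and a mean of -0.34. The authors' table gave 0.38, -1.04, 3 and -0.32. Normexp with quantile normalization gave 0.22, -0.48, -0.25 and 0.44, counts of 1, 12, 1 and 10, and a mean of -0.18. A 1.5-fold line gave 53, 66, 42 and 69. With the 55 genes of unshared probes, the counts of 35 and 37 became 21 and 24, of fewer genes (31.5% and 32.5% of all features passed those lines).

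Relative to the median of all features, the values 0.35, -0.59, -0.17, 0.62 and, for the mean, -0.25 became -0.89, -0.36 and -0.39 (ZT0, ALDH-low, mean) with quantile normalization, and -0.85, -0.33 and -0.37 in the authors' table. They became 0.18, -0.40 and 0.37 (ZT12, ZT0, ALDH-high) with normexp. A filter on all 4 arrays gave -0.28 in ALDH-low. Without a filter they were -0.34, -0.34, 0.33, 0.15 and -0.37, which adds features not above background to the comparison. Within position 1_1 the mean was 0.11 (0.08 relative) and within 1_2 -0.32 (-0.53 relative); the other causes were not tested. Of the ribosomal genes, limma called 0 for ALDH and 0 for time in every alternative, leaving out each array included (range 0 to 0; ALDH or time alone in the model, the lone array assumed to vary like the other group); of all features it called 1, not a ribosomal gene, for time without the ZT12 ALDH-high array. Among 530 recomputed values of named genes, only those with a measured difference of 2-fold or more were checked for a turn of sign. Of those checked, 0 turned. Smaller differences did turn, as at ZT12 on the median scale. No paired analysis was possible because each group has 1 array and the labels pair no replicate numbers; the fit of ALDH and time already compares the fractions within each slide. With 1 array per group, precision is limited by the number of arrays and not by signal.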
